A study of Mus musculus with 11 samples.

Results

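The comparison set the hippocampus of the infarcted side against that of the non-infarcted side 2 m after photothrombosis (PT) and the withdrawal of levetiracetam (LEV), and asked which differences on the side of the lesion were still present. It rests on 2 of the 11 libraries of the series, 1 a side, which were taken by their labels. The assay was CAGE (cap analysis of gene expression), a method that reads transcripts from their capped 5′ end, on total RNA of whole hippocampi of male C57BL/6N mice. In PT, the dye rose bengal (35 mg/kg, given into the peritoneum) is excited with LED light (565 nm, 200 mW, 30 min) over a circle 3.5 mm wide, so that vessels of the left parietal cortex clot. The lesion was thus aimed at the cortex, and whether it reached the hippocampus sampled was not tested here. LEV is an anti-seizure medicine whose target is SV2A, a protein of synaptic vesicles. It was given at 5 mg/mL in the drinking water for 2 weeks from 1 month after PT. The sample labels give a withdrawal of 2 w at the 2 m point and the series text gives 1 week, and this disagreement was not resolved here. The other libraries were the 2 sides of PT 7 d, PT 7 d LEV, PT 1 m and PT 1 m LEV, and 1 library of untreated (naive) mice. The labels of 7 d and 1 m are not later than the stated start of LEV at 1 month. When the PT 7 d LEV and PT 1 m LEV mice had received LEV is not given. The series used mice of 8 to 10 and of 65 to 85 weeks, and the age behind each library, the number of mice in it and whether both sides came from the same mice are not stated in the sources.

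After a cortical infarct, the hippocampus of the same side can lose part of its connections without being infarcted itself. Astrocytes answer such injury by making more of the filament proteins GFAP and vimentin, and microglia by taking on a phagocytic state with lysosomal, lipid-handling and antigen-presenting genes. The choroid plexus, which secretes cerebrospinal fluid, and the meninges lie against the hippocampus and may be dissected with it, so their genes were set apart from the other counts. They were the members of a choroid plexus list and a meningeal list and 32 choroid-tracking genes. The last were defined by a difference of at most -1 in the PT 1 m pair and at least 1 in the PT 1 m LEV pair, without use of the 2 m libraries.

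The library of the infarcted side held 18349813 reads and that of the non-infarcted side 16857014, within the 13382623 to 22377376 reads of all 11. Of 22377 genes, 16057 with a mean of at least 1 CPM (counts per 1000000 reads of the library) over the 11 libraries were used, of which 94 were set apart and 15963 were not. A difference is log2(CPM + 1) of the infarcted minus the non-infarcted side, which understates the change of low genes. With 1 library a side no test between the 2 libraries was possible, and intervals at 95% cover counting error only. Markers of the hippocampus were present on both sides. Prox1, of dentate granule cells, had 48.8 CPM on the infarcted side, against 53.5 CPM on the non-infarcted side, and Wfs1, of CA1 pyramidal cells, had 117 and 112 CPM in the same order. Drd2, of the striatum, had 2.29 CPM on the infarcted side and 2.85 CPM on the non-infarcted side.

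Over all genes used, the differences at 2 m had a median of 0.02 and an SD of 0.236, with the 1st percentile at -0.477 and the 99th at 0.787. The SD in the other 4 pairs lay between 0.223 and 0.260. Higher by a log2 of at least 1 on the infarcted side were 70 genes (0.436%), and lower by as much was 1 gene (0.00623%). Of the 70, 38 were among the genes set apart, which left 32 (0.2% of the other genes). With a pseudocount of 0.25 these were 110 and with a pseudocount of 5 they were 3, and 9 had a mean of at least 5 CPM over the 11 libraries. Above 0 were 54.8% of all genes used and below 0 were 45.2%, the shares beside which the counts of higher or lower list members stand. Past a log2 of 0.5, 506 genes outside those set apart were higher (3.17%) and 129 were lower (0.808%).

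**Figure D1:**
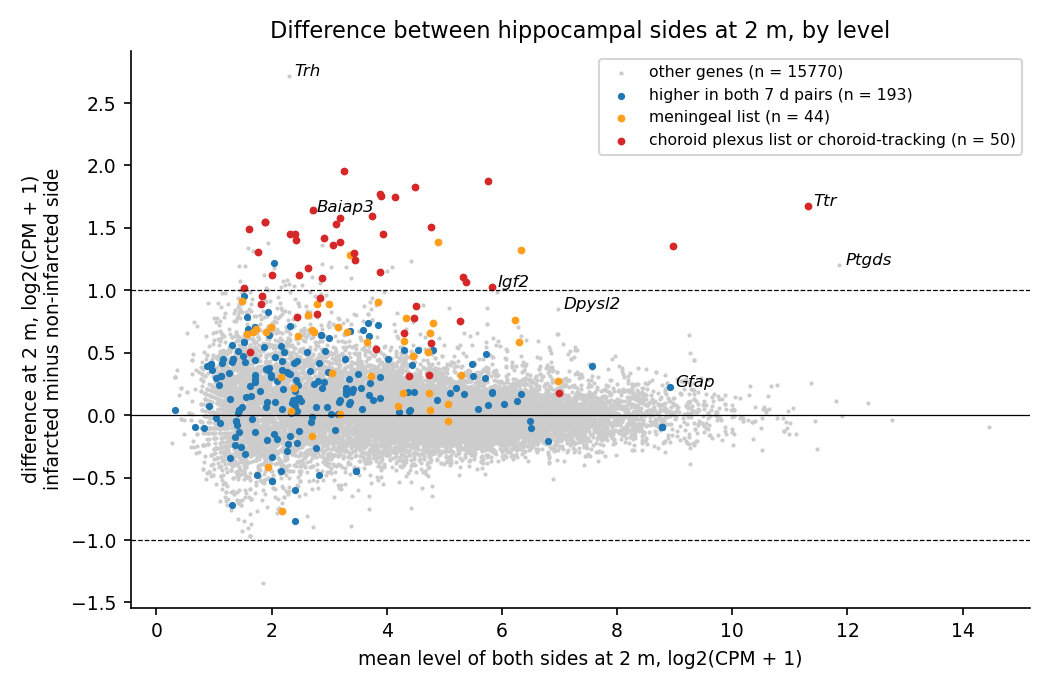
Each point is a gene, with the mean level of both sides at 2 m on the x axis, in log2(CPM + 1), and the difference of the infarcted minus the non-infarcted side on the y axis. The dashed lines mark a log2 of 1 and -1, and 38 of the 70 genes at or above the upper line are among those set apart, with Ttr at 1.68. Of the 47 meningeal genes, 3 that are also choroid-tracking have the colour of the choroid plexus.

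Of the gene lists, that of the choroid plexus had the highest median at 2 m. All 36 members of the list were higher on the infarcted side, with a median of 1.33. Their summed level was 5338 CPM on the infarcted side, against 1862 CPM on the non-infarcted side and 5028 CPM in the naive library. Ttr, the thyroid hormone carrier of the plexus epithelium, had 3872 CPM on the infarcted side and 1211 CPM on the non-infarcted side. Folr1, a folate receptor of that epithelium, had 26.3 and 7.12 CPM in the same order, a difference of 1.75, and Mfrp had 14.2 and 2.91 CPM, a difference of 1.96. Kl, which encodes klotho, had 23.2 and 14.4 CPM, and no defining marker of the plexus was at 0 on either side.

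The direction of this group was not constant over the pairs. The summed level was 4353 CPM on the infarcted side, against 4052 CPM on the non-infarcted side at 7 d, and 5929 and 4890 CPM at 7 d with LEV. At 1 m it was 375 CPM on the infarcted side, against 1937 CPM on the non-infarcted side, and at 1 m with LEV 2362 and 406 CPM. The medians of the list over these pairs were 0.07, 0.25, -1.12 and 1.34. The 32 choroid-tracking genes, some of which, such as Ecrg4, are also in the choroid plexus list, were all higher on the infarcted side at 2 m, with a median of 1.43. They are thus not a separate group of genes. How much tissue of the plexus each sample held was not measured, and whether it sets these values was not tested.

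The meningeal list was higher on the infarcted side in 43 of 47 members at 2 m, with a median of 0.64 and a summed level of 1189 CPM against 778 CPM on the non-infarcted side. Igf2, a growth factor, had 75.1 CPM on the infarcted side, against 36.3 CPM on the non-infarcted side, Fmod, a collagen-binding proteoglycan, had 42.0 and 15.4 CPM, and Igfbp2, an IGF-binding protein, had 114 and 44.97 CPM. The fibrillar collagens did not go with them: Col1a1 had 31.7 CPM on the infarcted side, against 32.7 CPM on the non-infarcted side, and Col3a1 had 5.12 and 5.87 CPM. Both collagens were above the naive library on both sides, where Col1a1 had 11.8 CPM and Col3a1 1.36 CPM. The list's medians in the other pairs were -0.11 at 7 d, 1.22 at 7 d with LEV, -0.50 at 1 m and 0.48 at 1 m with LEV.

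**Figure D2:**
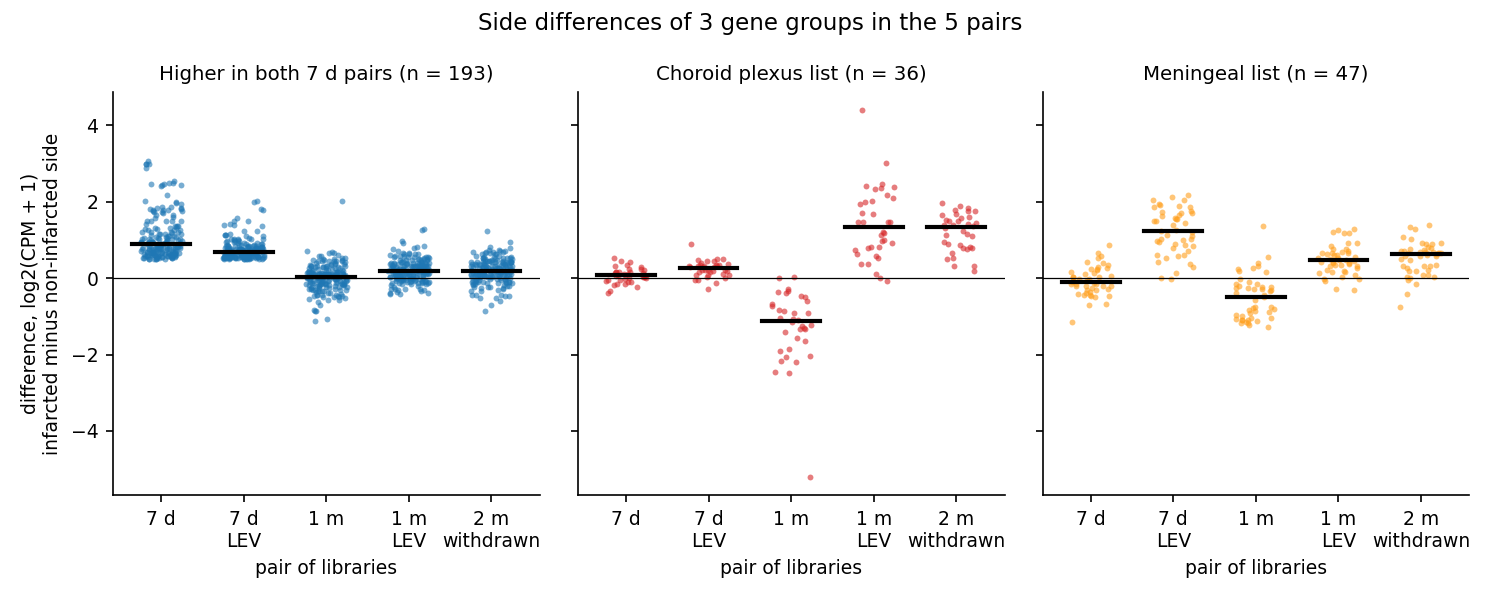
Differences of the infarcted minus the non-infarcted side, in log2(CPM + 1), are shown for the 5 pairs of libraries in order of time, 1 point a gene, with a black line at the median. The genes chosen by both 7 d pairs keep a median of 0.185 at 2 m, while the choroid plexus list has medians from -1.12 to 1.34 over the pairs.

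To ask what persisted, the genes with a difference of at least 0.5 in both 7 d pairs were taken, outside those set apart. Their 7 d values chose them and are not a result. There were 193 such genes, among 665 (4.17%) in the PT 7 d and 700 (4.39%) in the PT 7 d LEV pair, each taken alone, and the 7 d and 2 m pairs share no library. At 2 m, 148 of the 193 were above 0 (76.7%, against 54.6% of all genes outside those set apart). Their median at 2 m was 0.185, with an interquartile range of 0.0153 to 0.400. Still at or past 0.5 were 29 of them (15.03%, against 3.17% of all), 1 was past 1 and 5 were at or below -0.5 (0.808% of all). The share at or below -0.5 was thus also above that of all genes. A mean of at least 5 CPM was held by 80 of the 193 and by 12579 of the 16057 genes used. The background shares were not matched for level, and the part of level in these counts was not tested. The 45 genes just inside the rule, with a smaller 7 d difference of 0.5 to 0.55, had a median of 0.153 at 2 m, and the 52 just outside, at 0.45 to 0.5, had one of 0.261. Several of the 193 share their reads with a neighbouring entry, and counted once such entries left 182, of which 27 were at or past 0.5 at 2 m. The counts moved with the scale: 64 of 283 genes persisted with a pseudocount of 0.25 CPM in place of 1, 1 of 54 with a pseudocount of 5, 13 of 80 above a mean of 5 CPM, and 0 of 20 at a threshold of 1. With TMM scaling, which lowered the median of all genes at 2 m by 0.04, 20 of 170 persisted. The share of all genes past 0.5 was not counted at these pseudocounts, this filter or this scaling, so these counts stand without a background. The meningeal list was itself high on the infarcted side at 7 d with LEV (median 1.22) and its part in the choice of the 193 was not tested. Chosen by the PT 7 d pair alone, where the meningeal median was -0.11, 63 of 665 genes were at or past 0.5 at 2 m, and chosen by the PT 7 d LEV pair alone 128 of 700.

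At 1 m the same 193 genes had a median of 0.04 and 10 at or past 0.5 (background 1.62%), and at 1 m with LEV a median of 0.198 and 30 at or past 0.5 (background 1.67%). These backgrounds were likewise not matched for level. Of the 29 genes still higher at 2 m, 19 were below 0 in the PT 1 m pair and 7 were above 0 in both 1 m pairs. Of all genes outside those set apart, 57.0% were above 0 in the PT 1 m pair and 48.5% in the PT 1 m LEV pair. The share of all genes above 0 in both was not counted. In the PT 1 m pair the choroid plexus and meningeal genes were also lower on the infarcted side, and 4 of the 29 had the opposite 1 m differences of a weaker plexus pattern (at most -0.3 at 1 m and at least 0.3 with LEV). Only 2 genes were lower by 0.5 in both 7 d pairs (0.99% at 7 d and 0.501% at 7 d with LEV were so in 1 pair), and neither was at or below -0.5 at 2 m: Serpinb8, a serine protease inhibitor of the serpin family, had 2.94 CPM on the infarcted side, against 3.20 CPM on the non-infarcted side. Across the 15963 genes outside those set apart, the differences at 2 m had a Pearson r of 0.106 with those at 7 d, 0.159 at 7 d with LEV, -0.106 at 1 m and 0.0990 at 1 m with LEV. Genes are not independent replicates, and these values only describe the libraries.

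**Figure D3:**
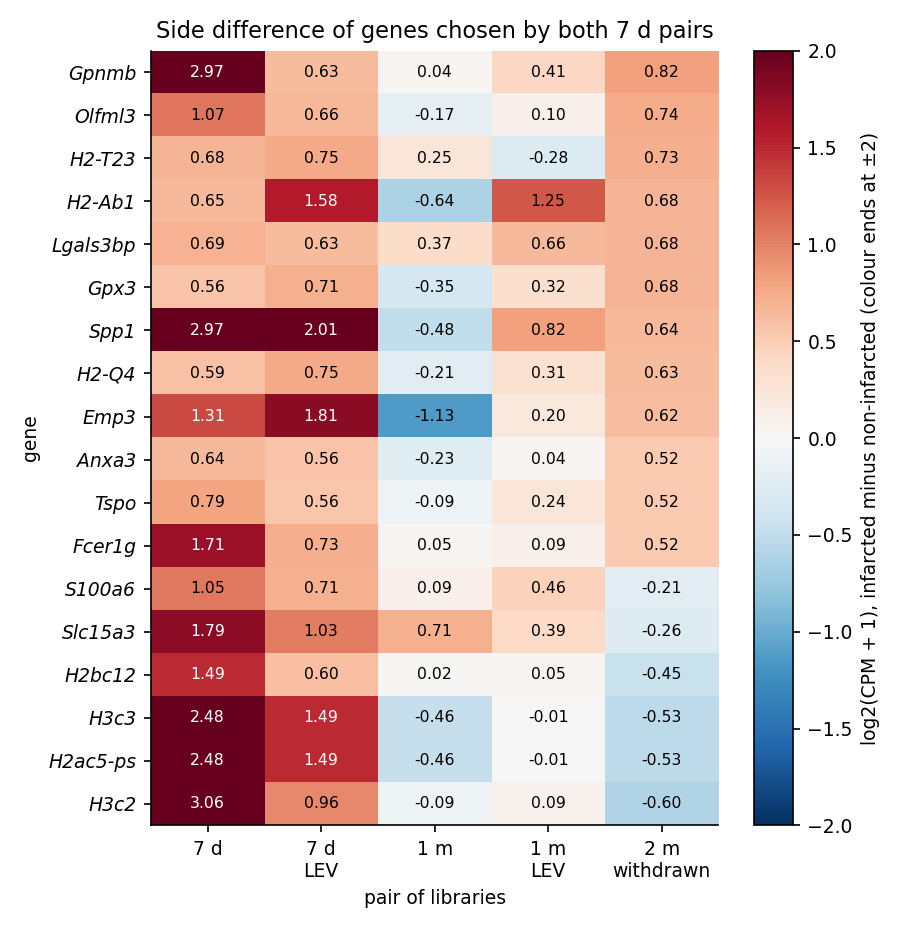
Rows are the genes chosen by both 7 d pairs that had the 12 largest and the 6 smallest differences at 2 m, at a mean of at least 5 CPM over the 10 PT libraries. Columns are the 5 pairs in order of time, and each cell prints the difference of the infarcted minus the non-infarcted side in log2(CPM + 1). Lgals3bp is above 0.3 in all 5 columns, while the histone genes at the bottom are above 0.5 at 7 d and below -0.4 at 2 m.

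Among the microglial and phagocyte genes of the persisting set, Lgals3bp, a secreted glycoprotein that binds galectin-3, had the most even difference. It had 12.5, 10.4, 6.05, 8.24 and 11.6 CPM on the infarcted side at 7 d, 7 d LEV, 1 m, 1 m LEV and 2 m. On the non-infarcted side it had 7.35, 6.33, 4.45, 4.87 and 6.88 CPM in the same order, and 5.43 CPM in the naive library. The difference at 2 m was 0.68, and each infarcted side was above every non-infarcted side except that 6.05 CPM at 1 m was below 3 of them. Gpnmb, a glycoprotein of lipid-laden phagocytes, had 3.92 CPM on the infarcted side, against 1.78 CPM on the non-infarcted side at 2 m, a difference of 0.82 beside 2.97 at 7 d. Spp1, which encodes osteopontin and cannot be told apart from an overlapping entry, had 7.79 and 4.63 CPM, a difference of 0.64 beside 2.97 at 7 d. Olfml3, a secreted protein of resident microglia, had 14.99 CPM on the infarcted side, against 8.60 CPM on the non-infarcted side. Fcer1g, the signalling chain of Fc receptors, had 31.7 and 21.8 CPM, and Tspo, the mitochondrial protein imaged as a marker of glial activation, had 26.5 and 18.2 CPM.

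Cd68, a lysosomal protein, had 12.6 CPM on the infarcted side, against 11.2 CPM on the non-infarcted side at 2 m, beside 47.6 and 8.22 CPM at 7 d. Trem2, a lipid receptor of microglia, had 14.5 and 13.1 CPM at 2 m, beside 35.0 and 10.5 CPM at 7 d. Aif1, which encodes IBA1, had 29.5 and 27.1 CPM at 2 m. The counting interval of the log2 ratio held 0 for Cd68, Trem2 and Aif1, so at this depth their difference was not detectable. Lgals3, galectin-3, had 9.16 CPM on the infarcted side, against 4.21 CPM on the non-infarcted side, a difference of 0.96 that was the largest of the phagocyte list at 2 m (interval of the log2 ratio 0.71 to 1.54). Lyz2, lysozyme, had 17.8 and 12.8 CPM with an interval of 0.23 to 0.74.

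Of the 23 measured members of the list for activated microglia and phagocytes, 20 were higher at 2 m, with a median of 0.28 (all genes 0.02). Of the 20 in the homeostatic microglia list, 17 were higher, with a median of 0.14. At 7 d these medians were 1.56 and 0.77. The resident microglial receptors P2ry12, with 34.6 CPM on the infarcted side, against 33.8 CPM on the non-infarcted side, and Cx3cr1, with 35.7 and 32.2 CPM, both exceeded the naive library, which had 19.1 and 14.2 CPM. In whole tissue, more cells of a type and more RNA per cell cannot be told apart.

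Antigen presentation had a median of 0.34 over 16 measured genes, of which 12 were higher (54.8% of all genes were) and 5 were at or past 0.5 (579 of all 16057 were). Cd74, the invariant chain of class II molecules, had 20.8 CPM on the infarcted side, against 12.2 CPM on the non-infarcted side, and H2-Ab1, a class II chain, had 13.7 and 8.19 CPM. Both exceeded the naive library (5.36 and 3.57 CPM) on both sides. The class II differences varied in sign over the pairs: H2-Ab1 had 0.65, 1.58, -0.64 and 1.25 in the pairs from 7 d to 1 m LEV. The choroid plexus and meningeal medians given above were likewise below 0 at 1 m and above 0 at 1 m with LEV and at 2 m, H2-Ab1 has the 1 m differences of the weaker plexus pattern, and the part of these tissues in the class II values was not tested. Among class I genes, whose reads may be split between near-identical copies, H2-T23 had 16.8 and 9.79 CPM and H2-Q4 14.6 and 9.08 CPM. B2m, the light chain that all class I molecules share, had 50.2 CPM on the infarcted side, against 37.5 CPM on the non-infarcted side. The peptide transporter genes Tap1 and Tap2 were not higher, with 2.45 and 8.88 CPM on the infarcted and 3.14 and 9.08 CPM on the non-infarcted side.

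The RefSeq promoter windows (GRCm38.p6, 250 bases before to 50 after the start) of B2m and H2-T23 are shown because both genes were higher at 7 d and at 2 m and both windows hold an interferon-type motif, GAAANNGAAA on either strand, in capitals. The window of B2m is chr2:122147437-122147736 on the plus strand and that of H2-T23 is chr17:36032652-36032951 on the minus strand, each printed 5′ to 3′.
B2m: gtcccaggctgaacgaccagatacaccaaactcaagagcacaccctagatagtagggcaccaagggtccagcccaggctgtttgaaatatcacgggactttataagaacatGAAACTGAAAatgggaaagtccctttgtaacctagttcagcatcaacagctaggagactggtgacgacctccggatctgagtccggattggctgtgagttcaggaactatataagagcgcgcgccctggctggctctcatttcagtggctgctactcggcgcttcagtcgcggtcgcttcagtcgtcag
H2-T23: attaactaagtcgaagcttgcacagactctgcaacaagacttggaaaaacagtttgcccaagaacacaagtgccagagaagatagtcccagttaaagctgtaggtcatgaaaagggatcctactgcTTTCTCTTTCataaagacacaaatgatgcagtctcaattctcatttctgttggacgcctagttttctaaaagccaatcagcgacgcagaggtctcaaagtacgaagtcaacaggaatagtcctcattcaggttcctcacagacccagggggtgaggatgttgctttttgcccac
The motif was in 2.84% of 14874 such windows of the genes used, in 3 of 15 windows of the antigen presentation list, in 12 of 20 of the interferon list, in 18 of 161 of the genes chosen at 7 d and in 2 of 24 of those still higher at 2 m. A match is a description of the letters and not of binding.

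The interferon response list had a median of 0.12, with 13 of 21 members higher. Ifit3, an interferon-induced antiviral gene, had 6.98 CPM on the infarcted side, against 3.80 CPM on the non-infarcted side, and Xaf1, also interferon-induced, had 5.89 and 7.36 CPM. Irf9, part of the factor that carries the type I interferon signal, had 5.23 and 2.79 CPM. It was named after its values were seen. Of the 193 genes, 11 had a difference of at least 0.2 in all 5 pairs, the 7 d ones being given by the rule, and they too were picked after their values were seen. They were Lgals3bp, Vim, Lcn2, Cd52, Clec7a, Ctsc, Irf7, Apobec1, Cntf, Thbs4 and Cd300c2. The share of all genes with a difference of at least 0.2 in every later pair was not counted, so the 11 stand without a background.

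Of the astrocyte genes, Gfap had 678, 401, 405, 310 and 518 CPM on the infarcted side at 7 d, 7 d LEV, 1 m, 1 m LEV and 2 m. On the non-infarcted side it had 352, 253, 282, 272 and 442 CPM, and 277 CPM in the naive library. The infarcted side was thus higher in every pair, by 0.23 at 2 m (interval of the log2 ratio 0.18 to 0.27), beside 0.94 at 7 d. The non-infarcted side at 2 m, at 442 CPM, was above the infarcted side of 3 other pairs. Vim had 49.2 CPM on the infarcted side, against 39.3 CPM on the non-infarcted side at 2 m. Lcn2, a secreted iron-carrier protein of reactive astrocytes, had 2.72 and 1.31 CPM. C4b, a complement component, had 41.7 and 37.0 CPM, while Serpina3n, a protease inhibitor of reactive astrocytes, had 28.2 and 30.0 CPM. The reactive astrocyte list had a median of 0.12 with 15 of 23 members higher. The list for astrocyte homeostasis had one of 0.08 with 13 of 17 higher, led by Gja1, the gap junction protein connexin 43, at 175 CPM on the infarcted side, against 138 CPM on the non-infarcted side.

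**Figure D4:**
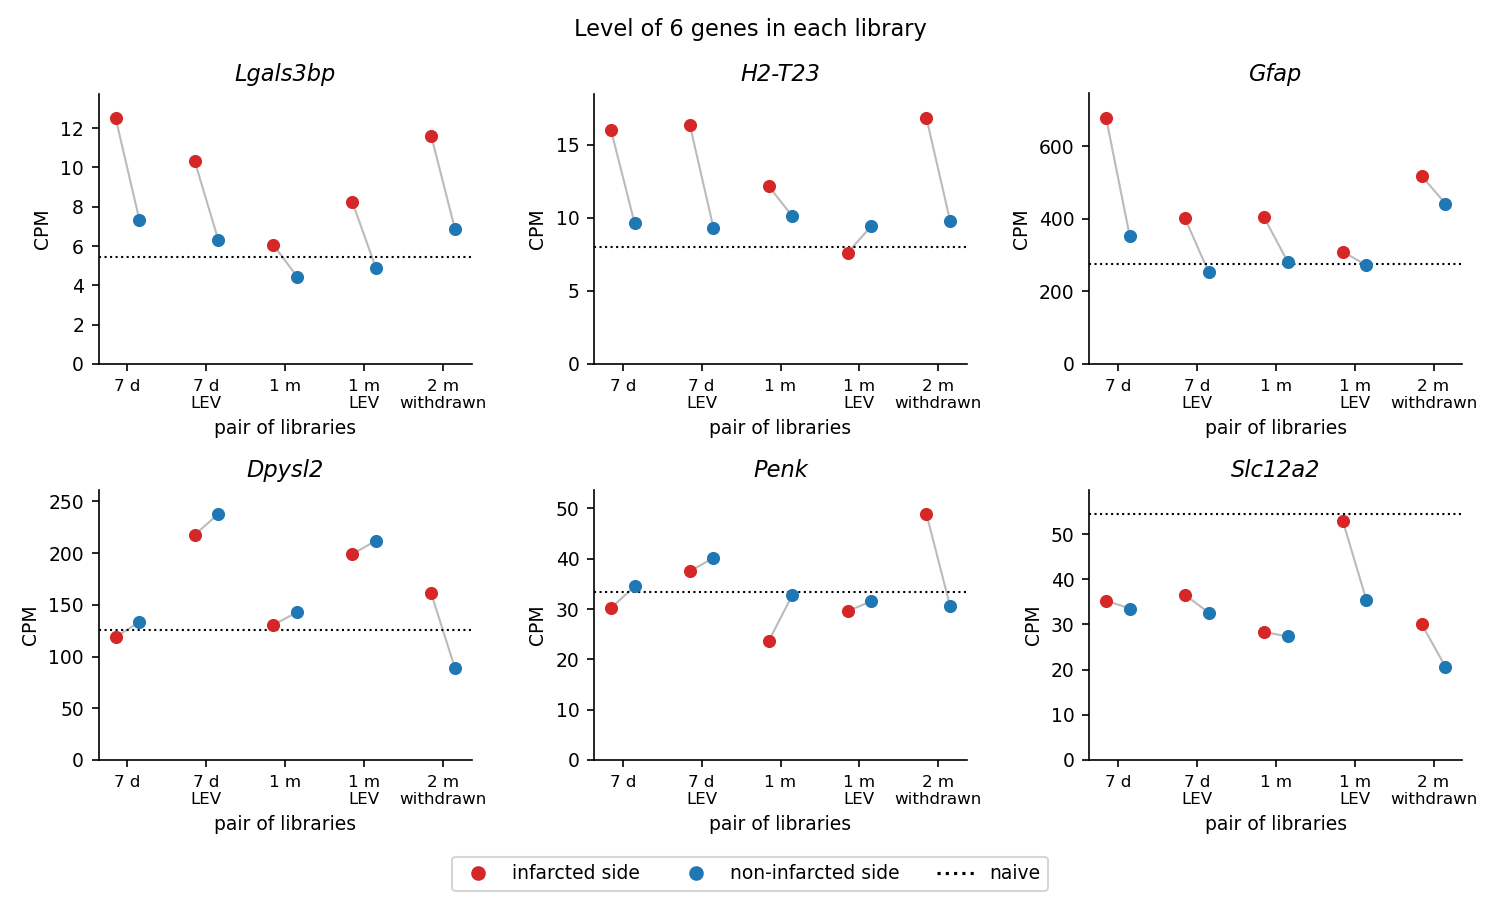
The level in CPM of 6 genes is shown in each library, with the infarcted side as the red left point and the non-infarcted side as the blue right point of each pair, in order of time, and the naive library as a dotted line. Gfap is higher on the infarcted side in all 5 pairs, whereas Dpysl2 and Penk are so at 2 m alone among these pairs.

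Genes that had been high at 7 d and were lower on the infarcted side at 2 m included replication-dependent histones and a mitosis gene. H3c2, a histone H3 gene, had 3.22 CPM on the infarcted side, against 5.40 CPM on the non-infarcted side at 2 m, beside 26.1 and 2.24 CPM at 7 d. H2bc12, a histone H2B gene, had 8.34 and 11.7 CPM at 2 m, and H3c3, whose reads are shared with a pseudogene entry, had 2.29 and 3.74 CPM. H2ac12, a histone H2A gene, had 2.78 and 5.81 CPM, and Birc5, which encodes survivin of dividing cells, had 0.872 and 2.08 CPM, and both were named after their values were seen. S100a6, a calcium-binding protein, had 103 CPM on the infarcted side, against 119 CPM on the non-infarcted side.

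Outside the genes set apart and those chosen at 7 d, the largest difference was that of Trh, the precursor of thyrotropin-releasing hormone. It had 138 reads (7.52 CPM) on the infarcted side and 5 reads (0.297 CPM) on the non-infarcted side, a difference of 2.72 with an interval of the log2 ratio of 3.41 to 6.31, and 0.357 CPM in the naive library. Its other pairs had differences of 0.43, 0.09, 0.38 and 1.05. Trh is below the mean level required for named genes and was taken up after its value was seen. Cartpt, the precursor of the peptide CART, had 12.6 CPM on the infarcted side, against 4.98 CPM on the non-infarcted side, and Penk, the enkephalin precursor, had 48.9 and 30.6 CPM. Penk was lower on the infarcted side in the other 4 pairs, at -0.19, -0.10, -0.46 and -0.09.

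The neuropeptide list as a whole had 17 of 18 members above 0 but a median of 0.08, and Npy, with 100.3 CPM on the infarcted side, against 99.1 CPM on the non-infarcted side, and Sst, with 512 and 485 CPM, differed little. Bdnf, the neurotrophin, was the 1 member below 0, with 29.8 and 31.2 CPM. With TMM scaling, which lowered the median of all genes by 0.04, the list's median was 0.03. Rorb, a marker of neocortical layer neurons in the list of neighbouring tissue, had 14.3 CPM on the infarcted side, against 9.43 CPM on the non-infarcted side, and that list had 15 of 22 members above 0 and a median of 0.15. Its part in the peptide values was not tested.

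The other named genes at or past a log2 of 1, with a mean of at least 5 CPM over both libraries at 2 m, were in part like the choroid plexus over the pairs. The pattern meant is a difference of at most -0.3 at 1 m and at least 0.3 at 1 m with LEV. Of the 193 genes chosen at 7 d, 18 had it, and its share over all genes was not counted. Of the 32 genes at or past a log2 of 1 outside those set apart, at any mean level, 16 had it. Among them were Ptgds, the prostaglandin D synthase made by meninges and plexus, with 5181 CPM on the infarcted side, against 2253 CPM on the non-infarcted side, Col9a3, a collagen IX chain, with 29.1 and 11.8 CPM, and Sulf1, a heparan sulfatase, with 22.8 and 9.43 CPM. Dab2, an endocytic adaptor, had 21.04 and 8.90 CPM, Coch, which encodes cochlin, 9.54 and 3.08 CPM, and Cdkn1c, a cell-cycle inhibitor, 7.90 and 3.14 CPM. The genes without that 1 m pattern included Baiap3, a regulator of dense-core vesicle traffic, at 8.66 CPM on the infarcted side, against 2.14 CPM on the non-infarcted side, and Alpl, tissue-nonspecific alkaline phosphatase, at 9.26 and 3.44 CPM. Myo7a, an unconventional myosin, had 10.4 and 3.97 CPM, Gpx8 had 13.2 and 5.64 CPM and Mrap2, an accessory protein of melanocortin receptors, had 8.72 and 3.68 CPM.

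Among lower genes the only one past a log2 of -1 was Cdkn2a, which encodes the cell-cycle inhibitors p16 and p19 and was named after its value was seen. It had 19 reads (1.04 CPM) on the infarcted and 70 reads (4.15 CPM) on the non-infarcted side, while the other 9 libraries had 0.252 to 1.49 CPM, so the non-infarcted side at 2 m was the high one. Among the 12 lowest at a mean of at least 5 CPM over both libraries at 2 m, the non-infarcted side at 2 m was likewise the highest of all 11 libraries for Cdk6, S100a4, Ccn1, Tcp11l2 and Mthfs. Cdkn2a and these 12 were chosen by their 2 m difference, which a high non-infarcted value favours, so this only describes them. The share of all genes with that library the highest was not counted. Cdk6, a G1 kinase, had 3.60 CPM on the infarcted side, against 7.53 CPM on the non-infarcted side, S100a4, a calcium-binding protein of motile cells, had 6.32 and 12.5 CPM, and Ccn1, a matricellular protein, had 6.38 and 10.1 CPM. In the naive library they had 3.21, 3.36 and 3.50 CPM. Tcp11l2 had 8.61 CPM on the infarcted side, against 15.2 CPM on the non-infarcted side, and 7.71 CPM in the naive library. Mthfs had 5.61 CPM on the infarcted side, against 9.43 CPM on the non-infarcted side, and 6.71 CPM in the naive library. Kazn, Stac, Slc35e3, Rexo1, Kctd21, Gal3st1 and H2ac7 completed the 12, with differences between -0.81 and -0.55.

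**Figure D5:**
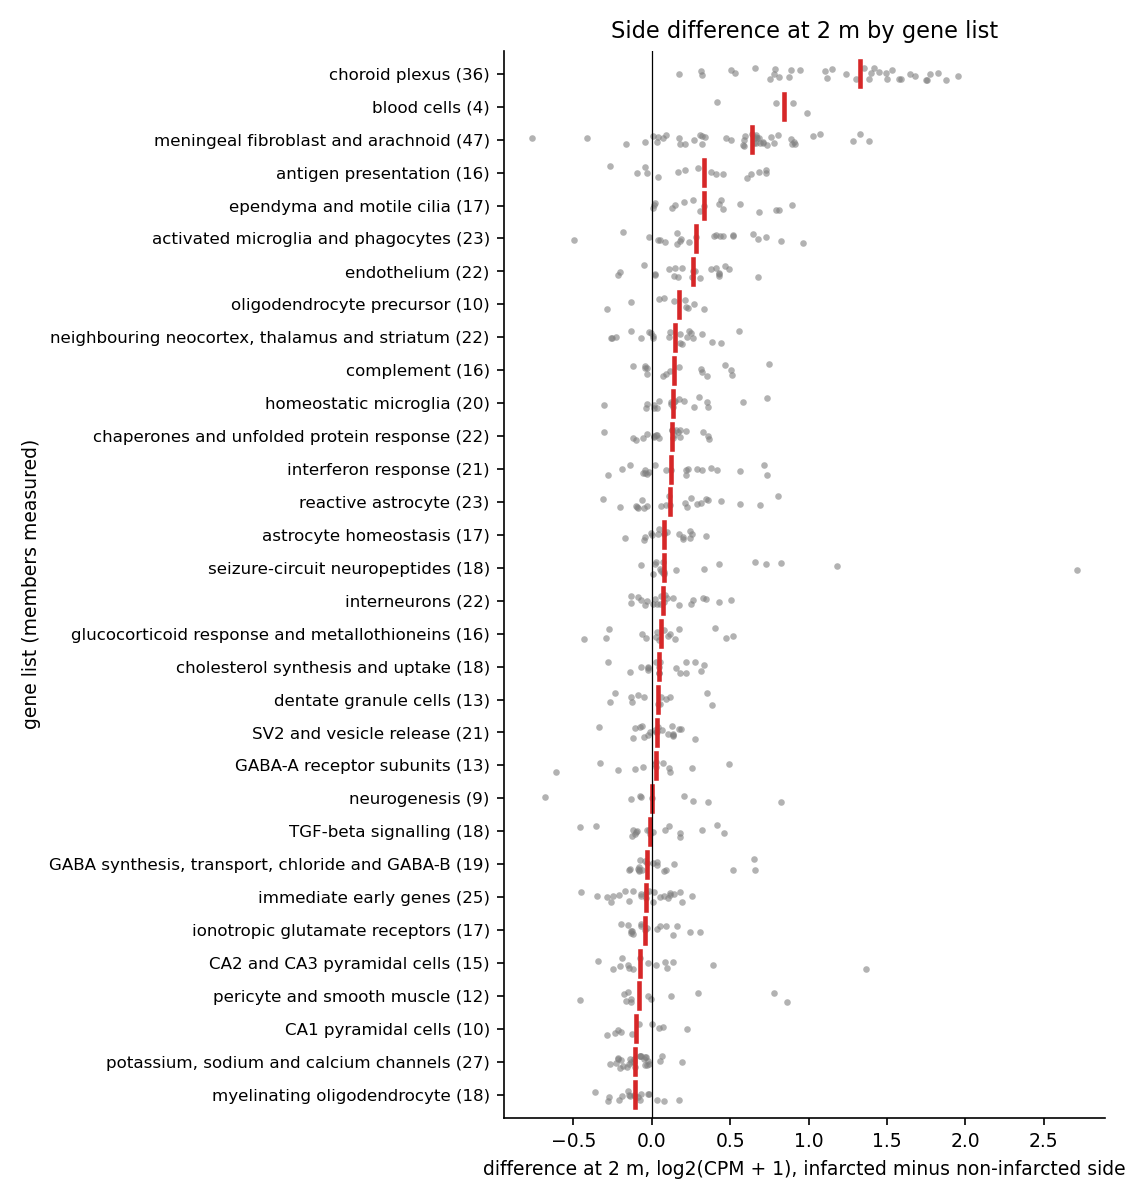
Each row is a gene list, with the number of measured members in brackets, and each point is a member's difference at 2 m of the infarcted minus the non-infarcted side, in log2(CPM + 1), with the median in red. Choroid plexus genes have the highest median, at 1.33, and the lists of neuronal receptors and channels have medians within 0.11 of 0.

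Myelinating oligodendrocyte genes were lower on the infarcted side at 2 m in 15 of 18 members, with a median of -0.11, where the other 4 pairs had medians of 0.29, 0.16, 0.07 and 0.07. Mbp, myelin basic protein, had 2579 CPM on the infarcted side, against 3118 CPM on the non-infarcted side, Mobp, another myelin protein, had 311 and 377 CPM, and Myrf, the transcription factor of myelination, had 33.6 and 43.5 CPM. The naive library had 1828 CPM of Mbp and 199 CPM of Mobp, below both sides. Oligodendrocyte precursor genes were higher in 8 of 10 members, with a median of 0.18.

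Endothelial genes were higher in 19 of 22 members, with a median of 0.26, and Slc2a1, the glucose transporter of the blood-brain barrier, had 64.9 CPM on the infarcted side, against 46.7 CPM on the non-infarcted side. Pericyte and smooth muscle genes had a median of -0.08 with 4 of 12 higher, 2 at or past 0.5 and 0 at or below -0.5. Acta2, smooth muscle actin, had 19.9 CPM on the infarcted side, against 27.8 CPM on the non-infarcted side, a difference of -0.46. Vtn and Rgs5 of the same list went the other way, with differences of 0.86 and 0.30. All 17 ependymal genes were above 0, with a median of 0.34. Of the 20 genes of blood cells 4 were measured, and Hbb-bs, a haemoglobin chain, had 16.0 CPM on the infarcted side, against 8.07 CPM on the non-infarcted side. The part of blood in the values of Pf4, a platelet and macrophage chemokine at 4.80 and 1.48 CPM, and of S100a8, a neutrophil protein at 2.78 and 1.19 CPM, was not tested.

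Neuronal lists had medians near 0 on the deposited scale, the lowest being that of the potassium, sodium and calcium channels at -0.10. Dentate granule cell genes had a median of 0.04 and Calb1, a calcium buffer, had 303 CPM on the infarcted side, against 237 CPM on the non-infarcted side. CA1 genes had a median of -0.10 and Neurod6, a transcription factor of pyramidal cells, had 138 and 163 CPM. It was also lower on the infarcted side in the other 4 pairs, with differences of -0.20 to -0.45. The GABA-A receptor subunits, which form the main inhibitory channel, had a median of 0.03 with 8 of 13 above 0. Gabra3 had 31.1 CPM on the infarcted side, against 21.8 CPM on the non-infarcted side, whereas Gabra5, the subunit of extrasynaptic receptors in hippocampal pyramidal cells, had 162 and 204 CPM. Sv2a, the target of LEV, had 147 CPM on the infarcted side, against 145 CPM on the non-infarcted side, with an interval of the log2 ratio of -0.06 to 0.10.

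Slc12a2, the chloride importer NKCC1 that the choroid plexus also expresses, had 30.0 CPM on the infarcted side, against 20.6 CPM on the non-infarcted side, both below the 54.4 CPM of the naive library. Potassium, sodium and calcium channels were lower on the infarcted side in 24 of 27 members (45.2% of all genes were), with a median of -0.10. Immediate early genes had a median of -0.03, and Fos had 4.90 and 4.69 CPM and Npas4 6.32 and 5.75 CPM. With TMM scaling the medians of all genes and of the dentate, GABA-A and vesicle release lists turned negative, at -0.02, -0.0033, -0.02 and -0.01. Already below 0, the CA1 list, the CA2 and CA3 list and the channel list went to -0.148, -0.120 and -0.151. The interneuron and neuropeptide lists stayed above 0, at 0.03 each.

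Two-sided tests with limma were possible over pairs only. The infarcted against the non-infarcted side over the 5 pairs, with condition as a block, gave 0 genes at an adjusted p under 0.05 (0.0%), 1221 at an unadjusted p under 0.05, and a smallest adjusted p of 0.233. EdgeR gave 0 and DESeq2 14, and without the PT 1 m pair limma gave 50. Whether the 2 m difference departed from the mean of the other 4 pairs was tested on the 5 pair differences, where the lone 2 m pair is assumed to vary like the others. It gave 1 gene (0.00623%), with 910 at an unadjusted p under 0.05 and 1 gene by edgeR.

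That gene was Dpysl2, which encodes CRMP2, a tubulin-binding protein of growing axons (chr14:66802864-66868688, minus strand, GENCODE M21 on GRCm38). It had 119, 218, 131, 199 and 161 CPM on the infarcted side at 7 d, 7 d LEV, 1 m, 1 m LEV and 2 m. On the non-infarcted side it had 133, 238, 143, 212 and 89.0 CPM, and 125 CPM in the naive library. The infarcted side was the lower in each of the first 4 pairs and the higher at 2 m, where the non-infarcted value was the lowest of all 11. The contrast was 0.97 ± 0.10 (SE, limma adjusted p = 0.0259). It was not called with TMM scaling, without the filter on low values, without a trend, or without the PT 7 d LEV, PT 1 m or PT 1 m LEV pair. For none of the peptide genes did the 2 m difference pass this test: Penk had 0.87 ± 0.16 and Trh 2.23 ± 0.40 (SE), both with a limma adjusted p of 0.597.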

How the data were processed

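CAGE libraries were analysed from the deposited table, in which the authors give CPM per gene. In 100% of values the CPM came to whole reads within 0.01 of a read, so whole reads were recovered for intervals and count tests. BWA 0.7.17, HISAT2 2.0.5, DESeq2 1.20.0 and GRCm38 are named in the submitters' processing notes, with roles not given. Listed genes held 93.0% to 96.1% of reads, and a count of 0 allows up to 3 reads, or 0.163 CPM on the infarcted side, against 0.178 CPM on the non-infarcted side, at 2 m.

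From the values, log2(CPM + 1) was computed for genes with a mean of at least 1 CPM. Limma 3.58.1 (trend, Benjamini-Hochberg adjustment, R 4.3.3) gave the tests, and edgeR 4.0.16 and DESeq2 1.42.0 on recovered reads were alternatives. The fits were also run on simulated counts. Those genes were independent, with a fixed dispersion and no shifts between pairs, so the simulation cannot show how the fits behave with the real spread between pairs. The first fit had 4 residual degrees of freedom and the second 3. P-values measure the spread between pairs that differ in time and LEV. Intervals are exact Poisson bounds, and exact conditional binomial bounds for ratios of 2 libraries (Python 3.11.15, scipy 1.17.1).

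Samples were grouped by their treatment labels. There were 32 gene lists with 670 entries, 606 of them measured. The members, lists and tests were chosen with earlier results of these data known. Named were the 12 largest differences at 2 m in each direction at a mean of at least 5 CPM over both 2 m libraries outside the genes set apart, the 12 largest and 6 smallest at 2 m of the genes chosen at 7 d, genes past a test, up to 4 a list and 30 fixed genes. Markers and other list members that the text names were chosen after their values were seen. Genes known only by an identifier were counted and not named. Identifiers were matched to GENCODE M21 (22335 of 22377, without version), and promoters to RefSeq by symbol (11574 of 16027). Alternatives were scaling, pseudocount, filter, threshold, the genes set apart, the choice by 1 of the 7 d pairs, the tool, and leaving out each pair.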

Additional observations from a re-analysis of the deposited data

Results flagged for a closer look

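The side difference of Dpysl2 at 2 m was above the mean of the other 4 pairs by 0.974 (limma, SE 0.100, adjusted p = 0.0259), in a test where the lone 2 m pair has no spread of its own and is assumed to vary like the others. The call was lost with TMM scaling, without the filter on low values, without a trend, and without the PT 7 d LEV, PT 1 m or PT 1 m LEV pair. It was higher on the infarcted side in 1 of 1 pair at 2 m and in 0 of 4 other pairs, at 161 CPM on the infarcted side, against 89.0 CPM on the non-infarcted side at 2 m.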

How the results depend on the processing

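Of the 708 values of 177 named genes under other scalings and pseudocounts, 0 reversed and 15 moved past the counting interval. Main counts were 32 higher and 1 lower gene past a log2 of 1 outside those set apart, and 29 of 193 higher and 0 of 2 lower genes persisting. TMM scaling gave 25, 1, 20 of 170 and 0 of 4 in that order. A pseudocount of 0.25 gave 110, 22, 64 of 283 and 2 of 25, and a pseudocount of 5 gave 3, 0 and 1 of 54 for the first 3. No filter gave 5 lower genes, and a filter at a mean of 5 CPM gave 9, 0 and 13 of 80. A threshold of 1 left 0 of 20. Choosing by PT 7 d alone gave 63 of 665 and 11 of 158, and by PT 7 d LEV alone 128 of 700 and 1 of 80. Setting apart the weaker 1 m pattern too, an alternative chosen after seeing the data, left 16 higher genes. The cause of these changes was not tested. The side test over 5 pairs gave 0 genes, 14 with DESeq2, and 0 to 50 with 1 pair left out (50 without PT 1 m, 0 without each other). It also gave 0 with no block for condition (245 at an unadjusted p under 0.05, against 1221 with the block). The 2 m contrast gave 1 gene, 0 with TMM, no filter or no trend, 2 with DESeq2, and 0 to 1 with 1 pair left out. The labels number no replicates, and the paired analysis is the one with condition as the block. With 1 library a side and unknown animals, mouse-to-mouse spread cannot be separated from the side, and low genes rest on few reads (as few as 4 a side among the 193).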

Other observations

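Of the lists not described above, complement genes were above 0 in 11 of 16 cases at 2 m (median 0.14). Glucocorticoid-response and metallothionein genes were above 0 in 11 of 16 cases (median 0.06). Mt2, a metal-binding protein induced by stress, had 185 CPM on the infarcted side, against 128 CPM on the non-infarcted side, and was higher on the infarcted side in all 5 pairs, while both sides at 2 m were below the 326 CPM of the naive library. Chaperone genes were above 0 in 17 of 22 entries (median 0.13), and Calr, a calcium-binding chaperone of the endoplasmic reticulum, had 126 and 97.7 CPM in that order. TGF-beta signalling genes were above 0 in 8 of 18 cases (median -0.01), and Tgfbr2, the type II receptor, had 22.2 CPM on the infarcted side, against 15.8 CPM on the non-infarcted side.

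Interneuron genes were above 0 in 16 of 22 cases (median 0.07). Reln, the secreted glycoprotein of a subset of interneurons, had 16.2 CPM on the infarcted side, against 11.2 CPM on the non-infarcted side, and Pvalb, the calcium buffer of fast-spiking cells, had 54.3 and 57.8 CPM. CA2 and CA3 genes had a median of -0.07 (6 of 15 above 0), ionotropic glutamate receptors -0.04 (7 of 17), GABA synthesis and transport genes -0.03 (9 of 19), cholesterol genes 0.05 (12 of 18) and neurogenesis genes 0.0018 (5 of 9), the last of which was -0.04 with TMM scaling. Gria1, an AMPA receptor subunit, had 842 CPM on the infarcted side, against 964 CPM on the non-infarcted side. No member of these lists passed either limma test over the pairs (0 of 16057 genes and 1 of 16057, Dpysl2).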
